A study of Rattus norvegicus with 8 samples.

Results

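Anti-Mullerian hormone (gene Amh) and its dedicated receptor (gene Amhr2) were followed in ovary RNA of immature rats, through every array probe that carries either gene name. Each gene had 1 probe, so the members were 2 of the 30367 probes on the array and 2 of the 26214 gene names. RNA came from whole ovaries of female rats. At 26 days of age rats had a subcutaneous dose of 50 IU PMSG (pregnant mare serum gonadotropin, a preparation with mainly follicle-stimulating activity) in 0.2 ml albumin phosphate buffer, and controls had the same volume of buffer alone, with 4 samples in each group. Ovaries were removed 48 h after the injection, at 28 days of age, and each sample was hybridised to a 1-colour Agilent rat array. No strain, transgene or other treatment is named in the labels. Nothing in the labels says that replicates are separate animals, so p-values measure the spread between these samples.

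Anti-Mullerian hormone is a ligand of the TGF-beta family that granulosa cells secrete while follicles grow from the primary to the small antral stage. It restrains the entry of primordial follicles into growth and lowers the response of growing follicles to follicle-stimulating hormone, and its production wanes in large antral follicles. Amhr2 is the type II receptor that binds it. The bound receptor recruits a type I receptor shared with the bone morphogenetic proteins (Acvr1, Bmpr1a or Bmpr1b), which phosphorylates Smad1, Smad5 and Smad9.

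Every direction below follows the sample titles: higher, lower, rose and fell all mean arrays labelled PMSG relative to arrays labelled control, not a response to PMSG. The luteinising hormone receptor gene Lhcgr and the steroid genes Star and Cyp11a1, generally known to rise after gonadotropin, were lower in arrays labelled PMSG. Amh, which wanes as follicles enlarge, was itself higher there. An exchange of the labels is possible and was not tested, and it would turn every direction given here. Levels are log2 processed signals minus the 75th percentile of the same array. That percentile lay between 1002.5 and 1103.1 signal units in arrays labelled control and between 768.9 and 1082.4 in those labelled PMSG. Lowest of all was PMSG array 3. A probe was tested where it was well above background on at least 4 of the 8 arrays, which 25303 probes were. Across these, 34.2% differed between the labels (limma, Benjamini-Hochberg adjusted p under 0.05), 17.6% being higher and 16.6% lower in arrays labelled PMSG. Without PMSG array 4, 6982 probes were higher and 4400 lower. In 36.6% the groups did not overlap. With each array centred on its median, 2914 differing probes were higher and 5534 lower, in place of 4452 and 4206 over all arrays with the 75th percentile. This centring moved the median log2 difference of all probes from 0.11 to -0.05.

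What each probe reads is fixed by its sequence, given here 5′ to 3′ in lower case with no part marked.
Amh probe: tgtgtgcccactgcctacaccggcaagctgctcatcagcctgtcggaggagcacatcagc
Amhr2 probe: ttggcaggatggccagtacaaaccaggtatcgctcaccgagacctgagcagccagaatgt
The Amh probe is placed by the array file on the minus strand of chromosome 7, from 10417373 to 10417432 in build rn4, and starts at base 1554 of the transcript NM_012902. The Amhr2 probe is placed on the plus strand of the same chromosome, from 141210499 to 141210674, and starts at base 1025 of NM_030998. Its 60 bases span 176 bases of the genome. The remaining 116 bases are skipped, as in a probe that joins sequence from neighbouring exons. No other probe on the array shared a run of 20 bases with either probe on either strand. Both probes were printed in 2 spots per array, all well above background and none saturated.

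Both transcripts were higher in arrays labelled PMSG, the hormone 8.14-fold (95% interval 5.10 to 13.0) and the receptor 3.26-fold (2.29 to 4.64). Neither gene's groups overlapped, which was also so for 36.6% of all tested probes. In bulk RNA, more cells of a type and more RNA per cell cannot be told apart.

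Amh, the hormone, stood at -0.93, -0.59, -0.72 and -1.10 in control-labelled arrays 1 to 4 and at 2.40, 2.07, 2.89 and 1.41 in PMSG-labelled arrays 1 to 4. All 4 arrays labelled PMSG lay above all 4 labelled control, with array 3 the highest and array 4 the lowest among them. The mean was -0.83 ± 0.23 (SD, n = 4) under the control label and 2.19 ± 0.62 (SD, n = 4) under the PMSG label. The increase was 3.03 on the log2 scale with an SE of 0.29 (limma adjusted p = 2.61e-04). Ordered from the largest increase, Amh was at position 21 of 25303 probes, and with the labels exchanged it would hold the same position from the largest decrease. As processed signal before scaling, the probe read 548, 703, 610 and 515 in arrays labelled control and 5196, 4306, 5703 and 2876 in arrays labelled PMSG.

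Amhr2, the receptor, stood at -1.72, -1.16, -1.62 and -1.54 in control-labelled arrays 1 to 4 and at 0.54, 0.30, 0.35 and -0.41 in PMSG-labelled arrays 1 to 4. PMSG array 4 was again the lowest of its label, and control array 2 was the highest of its label for receptor and hormone alike. The mean rose from -1.51 ± 0.24 (SD, n = 4) to 0.19 ± 0.42 (SD, n = 4), or by 1.71 on the log2 scale with an SE of 0.22 (limma adjusted p = 8.17e-04). Amhr2 was at position 561 in the same order, which likewise turns with the labels. Its processed signal was 316, 471, 325 and 378 in arrays labelled control and 1432, 1258, 977 and 813 in arrays labelled PMSG.

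**Figure D1:**
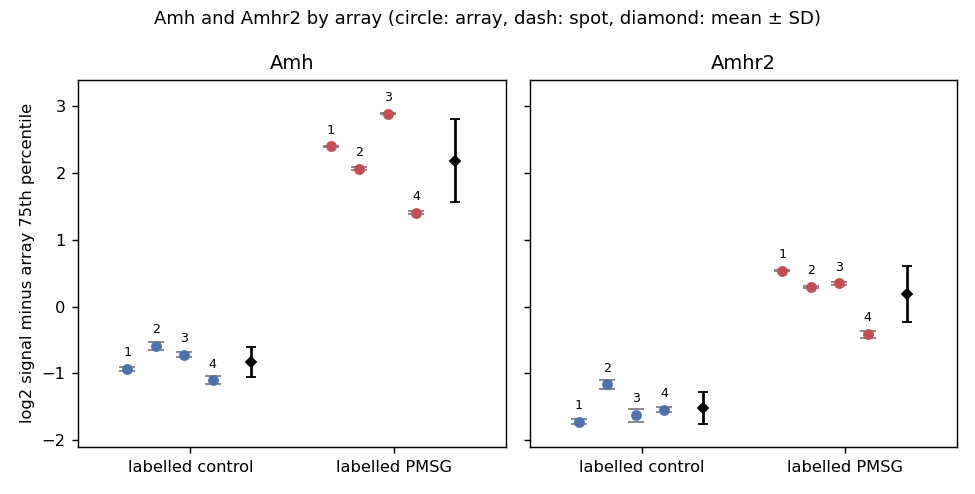
Levels of Amh (left) and Amhr2 (right) as log2 signal minus the array's 75th percentile, with 1 numbered circle per array, grey dashes for the 2 spots of the probe and a diamond with bars for the mean ± SD of 4 arrays. Arrays labelled PMSG sit above those labelled control in both panels, from 1.41 to 2.89 against -1.10 to -0.59 for Amh and from -0.41 to 0.54 against -1.72 to -1.16 for Amhr2.

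Spots of the same probe on the same array differed by less than the range among arrays of a label. For Amh the gap between the 2 spots was at most 0.121 (log2) under the control label and 0.043 under the PMSG label. For Amhr2 it was at most 0.191 and 0.111. Single Amh spots read from 495 to 733 signal units under the control label, over a local background of 17.0 to 22.5. The lowest Amhr2 spot read 304 over a local background of 19.0 to 22.0, and every spot of both probes was well above background.

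**Figure D2:**
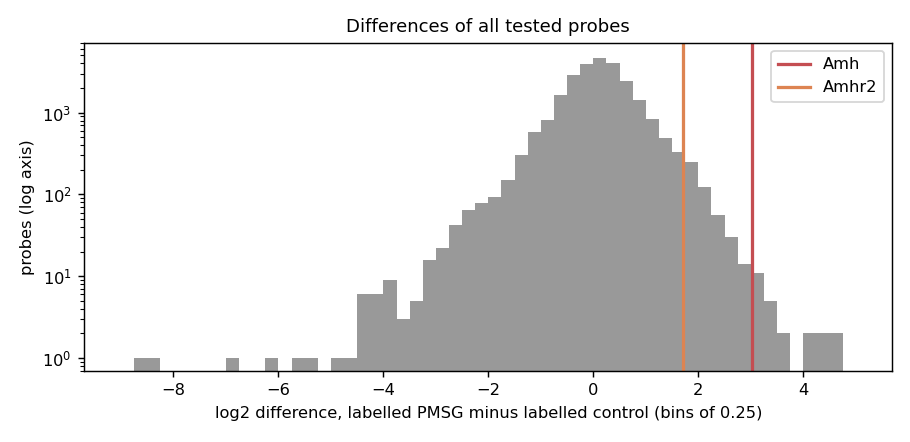
Number of tested probes (log axis) by log2 difference, labelled PMSG minus labelled control, in bins of 0.25, with vertical lines for the 2 members. Amhr2 at 1.71 lies in the upper flank and Amh at 3.03 near the upper end, while the median of all 25303 probes is 0.11.

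The hormone transcript rose more than the receptor transcript. Within arrays, Amh minus Amhr2 was 0.79, 0.58, 0.91 and 0.45 in control-labelled arrays 1 to 4 and 1.86, 1.77, 2.55 and 1.82 in PMSG-labelled arrays 1 to 4. These groups did not overlap, and array 3 stood above the other 3 of its label. The mean went from 0.68 ± 0.21 (SD, n = 4) to 2.00 ± 0.36 (SD, n = 4), a shift of 1.32 on the log2 scale, or 2.50-fold (exact two-sided permutation test, p = 0.0286, the smallest that 4 against 4 can give). A constant subtracted from all probes of an array leaves this value as it is (quantile normalization gave 1.36), and the 2 probes' absolute levels are not compared.

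Granulosa cells, the source of Amh, were checked through 7 of 8 listed markers that could be tested. Their mean log2 level ran from 3.01 to 3.75 in arrays labelled control and from 3.35 to 3.70 in arrays labelled PMSG, so the ranges overlapped. Wt1 was higher and Inhbb lower, and Foxl2, Fshr, Inha, Gja1 and Hsd17b1 did not pass the test. Taken relative to this marker mean on the same array, Amh was at -4.31 ± 0.46 (SD, n = 4) under the control label and -1.37 ± 0.55 (SD, n = 4) under the PMSG label, a difference of 2.95 (exact two-sided permutation test, p = 0.0286). Amhr2 differed by 1.63 on the same scale, with the groups apart in all 8 arrays (exact two-sided permutation test, p = 0.0286). Both comparisons were chosen after the values were seen, and 0.0286 is the smallest p that 4 against 4 can give. The marker mean varied too little between arrays for its subtraction to make the groups of either gene overlap. These p-values therefore add nothing to the comparison before subtraction. A further granulosa list, of 9 tested genes and including Nr5a2, had 1 gene higher and 2 lower, with a median log2 difference of -0.23. Over all tested probes 17.6% were higher and 16.6% lower. The means of that list ran from 2.12 to 2.79 under the control label and from 2.27 to 2.56 under the PMSG label.

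Markers of several other cell types also differed between the labels. Among all tested probes 17.6% were higher and 16.6% lower. Of 8 oocyte markers 7 were tested and 7 rose, with a list mean of -2.29 to -1.59 under the control label and -0.63 to 0.25 under the PMSG label. Of 4 oviduct epithelium markers 3 were tested and 3 rose, the list mean going from between -2.32 and -1.62 to between 0.13 and 0.75, with Muc1 above background on 3 of 4 arrays labelled control. Of 4 theca markers 2 rose, Insl3 by 2.60 and Ptch1 by 0.79, while Cyp17a1 at -0.22 and Tcf21 at -0.07 did not pass. The theca list means were 0.03 to 0.26 and 0.45 to 1.20. All 4 leukocyte markers rose, with list means of 0.09 to 0.48 and 0.81 to 0.90. All 5 luteal markers fell. Among them Prlr fell by 2.15, Star by 2.75 and Cyp11a1 by 3.36. For Star, PMSG array 2 stood at 3.81 and the other PMSG arrays between 0.99 and 1.92, and its dimmer probe fell by 2.05. Akr1c18 fell by 8.47 and was well above background on 1 of 4 arrays labelled PMSG. Ptgfr was not well above background on any array labelled PMSG. The part of these cell types in the Amh and Amhr2 differences was not tested. Endothelium (3 of 5 past the threshold, 2 of them lower), smooth muscle and fibroblasts (2 of 4 higher), red blood cells (1 of 4 lower) and adipocytes (3 of 3 not past it) had list means from -0.52 to -0.28, 2.40 to 2.89, 1.44 to 2.93 and -2.94 to -0.01 under the control label. Under the PMSG label these were -0.74 to -0.34, 2.72 to 3.43, 0.79 to 1.48 and -1.43 to -0.19.

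**Figure D3:**
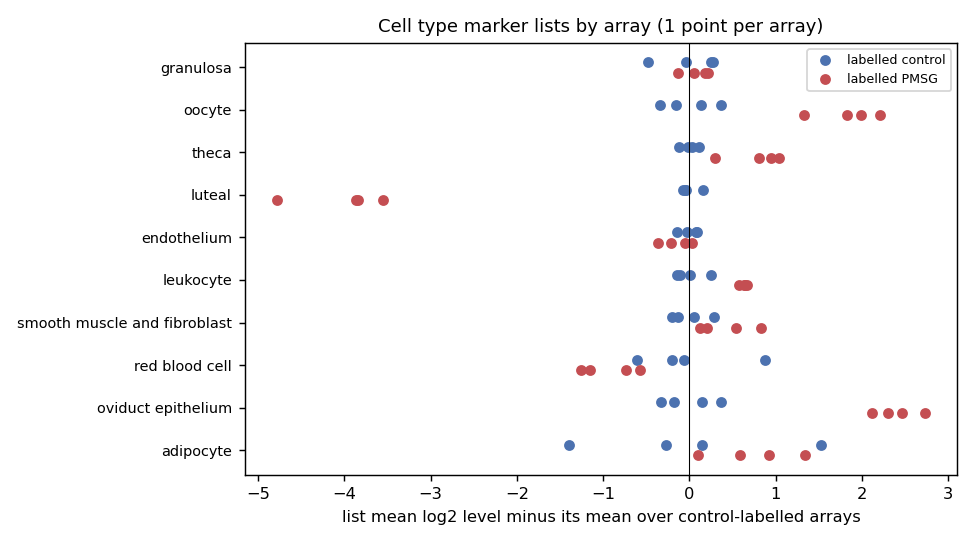
Mean log2 level of each cell type marker list by array, relative to its mean over the 4 arrays labelled control, with 1 point per array. Granulosa points of both labels overlap. Oocyte, oviduct epithelium, theca and leukocyte points are higher in all 4 arrays labelled PMSG, and luteal points are lower.

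The genes around the AMH pathway were read from lists drawn up with earlier results of these data known. Of 54 listed genes 51 were tested. Of these 22 (43.1%) passed the threshold, 14 higher and 8 lower, against 34.2% of all probes, with a median log2 difference of 0.17 against 0.11. In 20 of the 51 genes (39.2%) the groups did not overlap, against 36.6% of all probes. These shares stand near the background. With median centring 8 of the 51 differences changed sign.

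**Figure D4:**
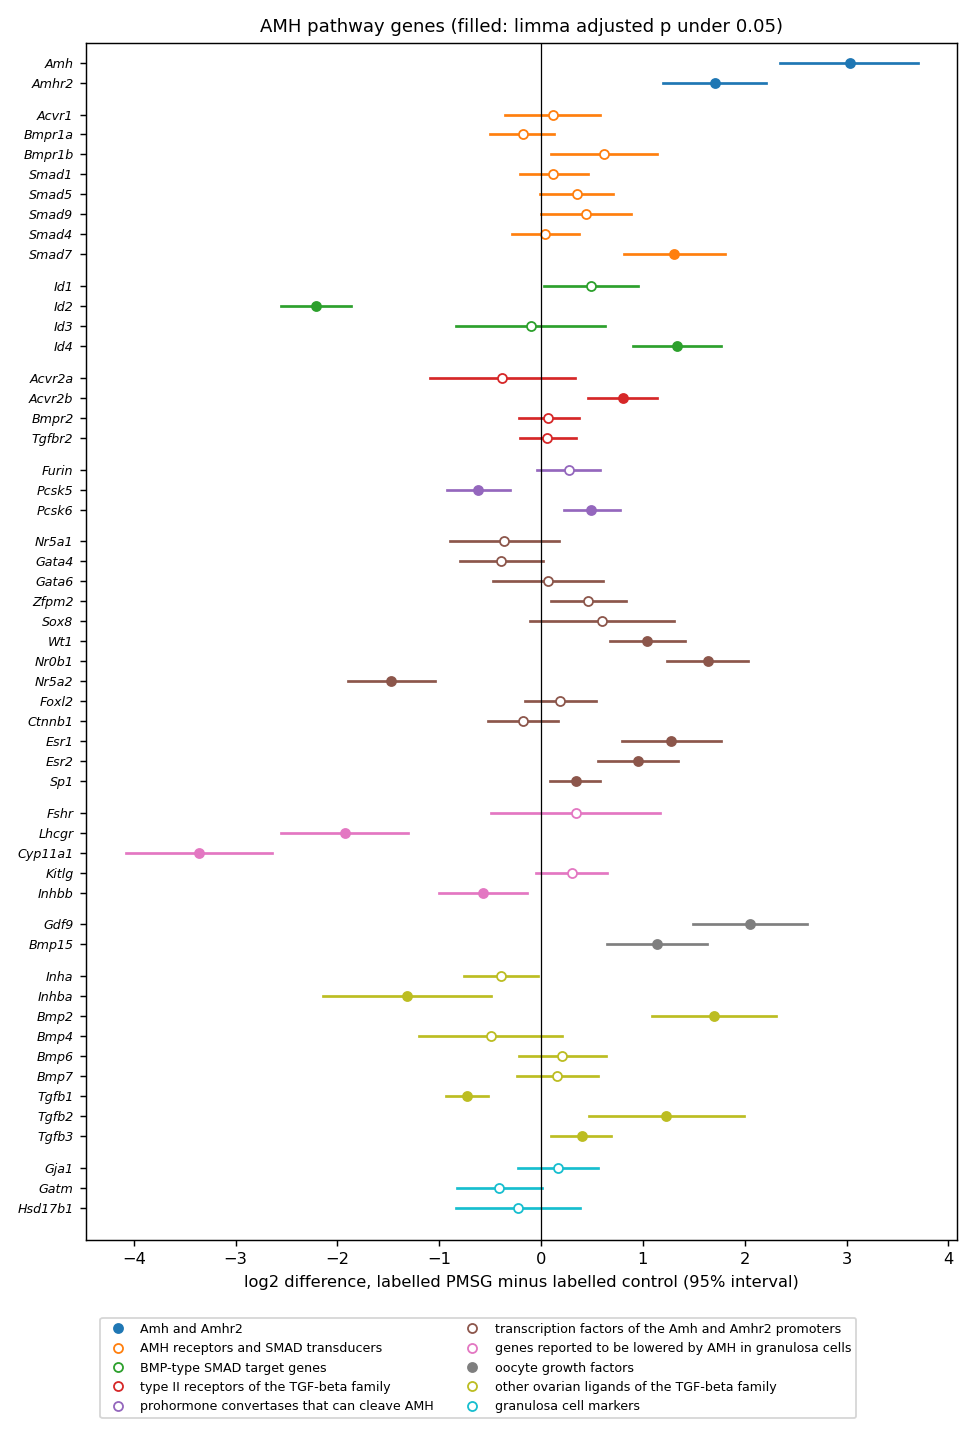
Log2 difference (labelled PMSG minus labelled control) with its 95% interval for Amh, Amhr2 and the listed pathway genes, coloured by list, with filled points where the limma adjusted p was under 0.05; a gene in several lists is drawn once. Amh at 3.03 has the largest increase, Cyp11a1 at -3.36 the largest decrease, and most type I receptors and SMAD genes have intervals that include or come close to 0.

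Downstream of the receptor, 1 of 8 tested type I receptor and SMAD genes passed, against 34.2% of all probes. The list median was 0.24, and the gene that passed was Smad7, the inhibitory SMAD that dampens signalling of the family. It stood at -2.60, -2.38, -2.54 and -2.33 in control-labelled arrays 1 to 4 and at -1.48, -0.62, -1.58 and -0.93 in PMSG-labelled arrays 1 to 4. The groups did not overlap, and the increase was 1.31 on the log2 scale with an SE of 0.22 (limma adjusted p = 0.00247; probe on chromosome 18, 72323004 to 72323062 in rn4). The 3 type I receptors that pair with Amhr2 had log2 differences of 0.12 for Acvr1, -0.18 for Bmpr1a and 0.62 for Bmpr1b. Bmpr1b missed the threshold (limma adjusted p = 0.0647) and passed after normexp background correction (0.0430) and with array weights (0.0491). The receptor-activated Smad1, Smad5 and Smad9 stood at 0.12, 0.35 and 0.44 and their common partner Smad4 at 0.04. Without PMSG array 4, Smad5 (0.50, limma adjusted p = 0.00678) and Smad9 (0.59, 0.0225) passed, as they did with array weights (0.0168 and 0.0292). With normexp background correction and quantile normalization Smad9 stood lower, at 0.22 and 0.17, and did not pass. Smad6 was not analysed here.

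Target genes of this SMAD branch moved in both directions, as did all tested probes, of which 17.6% were higher and 16.6% lower. Of 4 Id genes, which encode inhibitors of differentiation that block helix-loop-helix factors, Id4 was higher, Id2 was lower, and Id1 and Id3 did not pass. Id2 stood between 2.88 and 3.20 in all arrays labelled control and between 0.58 and 1.11 in all arrays labelled PMSG, which gave -2.21 on the log2 scale with an SE of 0.15 (limma adjusted p = 6.66e-05; chromosome 6, 42782548 to 42782897). A dim probe of Id2 was not well above background on any array. Id4 rose from between -0.86 and -0.31 to between 0.48 and 1.23, by 1.33 (SE 0.19, limma adjusted p = 0.00124). Id1 differed by 0.49, which passed without PMSG array 3 (0.64, limma adjusted p = 0.0306) and with array weights (0.0498).

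Of 4 other type II receptors of the family 1 passed, against 34.2% of all probes. This was Acvr2b, an activin receptor, at 0.80 (SE 0.15, limma adjusted p = 0.00424). Its dimmer probe stood at 0.45 and did not pass. The rest had log2 differences of -0.38 for Acvr2a, above background on 3 of 4 arrays labelled PMSG and at 0.04 with normexp background correction, 0.07 for Bmpr2 and 0.06 for Tgfbr2. The differences between these values and that of Amhr2 were not tested. The hormone is made as a precursor that convertases cleave. Of 3 convertase genes Pcsk6 was higher by 0.49 and Pcsk5 was lower, falling by 0.62, while Furin at 0.27 did not pass. Pcsk6 lost its call with median centring (limma adjusted p = 0.0774), and its dimmer probe at 0.53 did not pass (0.147).

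Transcription factors known for the Amh and Amhr2 promoters were measured for 13 of 14 listed genes. Of these 5 were higher, 1 was lower and 7 did not pass, with a median of 0.34. The shares over all tested probes were 17.6% higher and 16.6% lower. Nr5a1 (SF-1) and Gata4, the factors best known to act on the Amh promoter, stood at -0.36 (SE 0.23) and -0.39 (SE 0.18) and did not pass. Gata4 passed without control array 3 (-0.53, limma adjusted p = 0.0396). Nr0b1 (DAX-1), which restrains Nr5a1, was higher, going from between -3.65 and -3.08 to between -1.98 and -1.42, by 1.64 (SE 0.17, limma adjusted p = 3.63e-04; chromosome X, 73010187 to 73010246). Nr5a2, the close relative of Nr5a1 that granulosa and luteal cells express, fell by 1.47 (SE 0.19, limma adjusted p = 7.70e-04), and its other probe fell by 1.46. Wt1 was higher by 1.04 (SE 0.16, limma adjusted p = 0.00173), with its other probes at 0.41 and 0.56. The estrogen receptor genes Esr1 and Esr2 were higher by 1.28 and 0.95, and Esr1 by 0.70 with normexp background correction (limma adjusted p = 0.00206). Foxl2, the factor of granulosa identity, differed by 0.19 (limma adjusted p = 0.362).

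Some calls on these factors changed with the arrays or settings used. Sp1 was higher by 0.34 (limma adjusted p = 0.0400), and leaving out any control array, PMSG array 1 or PMSG array 2 ended that call (0.0644 to 0.107). So did the replicate block (limma adjusted p = 0.0847), slide row as a block (0.0597), no filter on dim probes (0.0557) and median centring (0.17, 0.427), and another Sp1 probe stood at -0.09. Sox8 at 0.60 passed without PMSG array 4 (0.87, limma adjusted p = 0.0190) and with array weights (0.75, 0.0303). With normexp background correction and quantile normalization Sox8 stood lower, at 0.31 and 0.38, and did not pass. Zfpm2 at 0.46 passed without control array 2 (0.56, limma adjusted p = 0.0419), with the replicate block (0.0351), with slide row as a block (0.0444) and over probes above background on all 8 arrays (0.0475). It was nearer to no difference with normexp background correction (0.22), quantile normalization (0.17) and median centring (0.30), and did not pass with any of them. Gata6 (0.07) and Ctnnb1 (-0.18) did not pass, and Sox9 was not analysed here.

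The bases just before the Amh transcript are printed because factors measured above are known to bind there. They are the 250 bases upstream of the RefSeq start, on the minus strand at chr7:9559868-9560117 of GRCr8, another build than that of the probes. Capitals mark AGGTCA, the core bound by NR5A factors, or its reverse complement, and the GATA core in the form AGATAA or with its last base changed (AGATAG), or the same pair starting with T in place of A (TGATAA; likewise TGATAG). Both strands were searched.
Amh promoter: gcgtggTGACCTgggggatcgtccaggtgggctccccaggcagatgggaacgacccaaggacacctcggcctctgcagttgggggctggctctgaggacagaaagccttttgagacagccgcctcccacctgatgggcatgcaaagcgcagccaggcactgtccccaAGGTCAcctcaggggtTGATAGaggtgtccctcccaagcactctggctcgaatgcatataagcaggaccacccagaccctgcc
AGGTCA lay from -83 to -78 relative to the start and in reverse from -244 to -239, and TGATAG lay from -67 to -62. No matches overlapped each other. Of 33469 RefSeq promoters of this length 14.1% held the NR5A core and 27.0% a GATA form. The same window of Amhr2 held neither set of letters. A TATA form (TATAAG or TATAAA, in 18.0% of promoters) lay from -27 to -22 in Amh. The SOX letters AACAAT (10.3%) and the SP letters GGGCGG (30.5%) were in neither window.

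Genes that AMH is reported to lower in granulosa cells were represented by 5 of 6 listed genes, of which 3 were lower and 2 did not pass, with a median of -0.57. Among all tested probes 16.6% were lower, and an action of AMH on these genes was not tested. Lhcgr fell from between -1.92 and -1.06 to between -4.03 and -2.93, by 1.93 (SE 0.27, limma adjusted p = 0.00114; chromosome 6, 12614473 to 12614532). Cyp11a1, the side-chain cleavage enzyme, also fell without overlap. It is on the luteal marker list as well, where every gene fell. Inhbb, an inhibin and activin subunit, fell by 0.57 (limma adjusted p = 0.0478) in its brighter probe, whose groups overlapped, and by 1.18 in its other probe. The call of the brighter probe ended when any array except control array 3 was left out (limma adjusted p = 0.0613 to 0.119), and for Inhbb also with the replicate block (0.0660), array weights (0.0569) or no filter on dim probes (0.0618). Fshr, the receptor of follicle-stimulating hormone, differed by 0.34 (SE 0.36, limma adjusted p = 0.480), with control array 3 at -1.49 and the other control arrays between -0.38 and 0.25, and by -0.02 without control array 3. Kitlg differed by 0.30 and did not pass. Cyp19a1 was not analysed here.

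Other ligands of the family did not share one direction. The oocyte factors Gdf9 and Bmp15, which stimulate granulosa cells, were both higher. Gdf9 rose from between -1.60 and -0.58 to between 0.51 and 1.24, by 2.05 (SE 0.24, limma adjusted p = 5.92e-04; chromosome 10, 38902923 to 38902982), and Bmp15 by 1.14 (SE 0.21, limma adjusted p = 0.00451). With normexp background correction Bmp15 was higher by 0.54 (limma adjusted p = 0.00984). Of 10 further ovarian ligands 3 were higher, 3 lower and 4 did not pass, with a median of -0.12. Over all tested probes 17.6% were higher and 16.6% lower. Bmp2 rose from between -2.06 and -1.40 to between -0.43 and 0.71, by 1.70 (SE 0.27, limma adjusted p = 0.00193). Tgfb1 fell by 0.73 (SE 0.09, limma adjusted p = 6.53e-04), and by 0.34 with normexp background correction (0.0194). Tgfb2 was higher by 1.23, with its call lost without control array 4 (1.08, limma adjusted p = 0.0620), with median centring (0.0546) and with the replicate block (0.0611). Of its dimmer probes, one was higher by 1.12 (limma adjusted p = 8.11e-04) and another at 0.81 did not pass (0.0989). Tgfb3 was higher by 0.40, with its call lost without control array 1, 2 or 3 or PMSG array 1, 2 or 4 (limma adjusted p = 0.0620 to 0.117). The call on Tgfb3 was also lost with median centring (0.23, limma adjusted p = 0.367), the replicate block (0.0832), slide row as a block (0.0637) and no filter on dim probes (0.0588). Inhba, the activin A subunit, fell by 1.32, with its call lost without control array 2 or 4 or PMSG array 1 or 2 (limma adjusted p = 0.0551 to 0.0641) and with the replicate block (0.0650). Inha at -0.39 did not pass, but did without control array 3 (-0.53, limma adjusted p = 0.0244), with quantile normalization (-0.50, 0.0430) and with median centring (-0.56, 0.0318). Bmp4, Bmp6 and Bmp7 stood at -0.49, 0.21 and 0.16. Among granulosa markers not yet named, Gatm stood at -0.41 and passed without PMSG array 2 (-0.54, limma adjusted p = 0.0483).

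In their brighter probes, the neighbours of Amh on chromosome 7 had log2 differences between -0.13 and 0.32. Sf3a2, a splicing factor gene directly next to Amh in the RefSeq table, stood at 2.00 to 2.13 in arrays labelled control and at 1.89 to 2.24 in arrays labelled PMSG, a difference of 0.01 (SE 0.10, limma adjusted p = 0.942). Plekhj1 differed by -0.13. Jsrp1 differed by 0.32 in its brighter probe (limma adjusted p = 0.390) and was higher by 1.11 in a dimmer one (limma adjusted p = 0.00243). Next to Amhr2, Prr13 fell by 1.13 (SE 0.12, limma adjusted p = 4.03e-04), Sp1 was described above and Sp7 at 0.42 did not pass. A pseudogene next to Amh and a long noncoding RNA next to Amhr2 were not analysed here.

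Likeness of profile was measured as the root mean square distance over the 8 arrays, each profile centred on its own mean, among 12525 genes above background on all arrays. All 8 arrays and their scaling are shared by the profiles, so the distances are a description. Nearest to Amh were Ankrd2, a muscle ankyrin-repeat gene (0.28), Serpina5, a serine protease inhibitor (0.30), the theca hormone gene Insl3 (0.41), Dlk2 (0.42) and Ly6g6e (0.43). Ankrd2 stood between -5.02 and -4.64 in arrays labelled control and between -2.66 and -1.19 in arrays labelled PMSG, with PMSG array 4 the lowest of its label as for Amh. Nearest to Amhr2 were Bcl2l10, a relative of the survival gene Bcl2 (0.08), Mos, a kinase of maturing oocytes (0.13), Lcn8 (0.15), Dpp10 (0.17) and Nlrp9 (0.17). Bcl2l10 stood at -1.64, -1.09, -1.46 and -1.42 in control-labelled arrays 1 to 4 and at 0.50, 0.40, 0.25 and -0.31 in PMSG-labelled arrays 1 to 4. PMSG array 4 was the lowest of its label here too. Since the genes were picked by nearness over these same arrays, likeness in array 4 is no separate observation. Amh and Amhr2 were 0.71 from each other, which placed Amhr2 at position 84 in nearness to Amh and Amh at position 2746 in nearness to Amhr2.

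**Figure D5:**
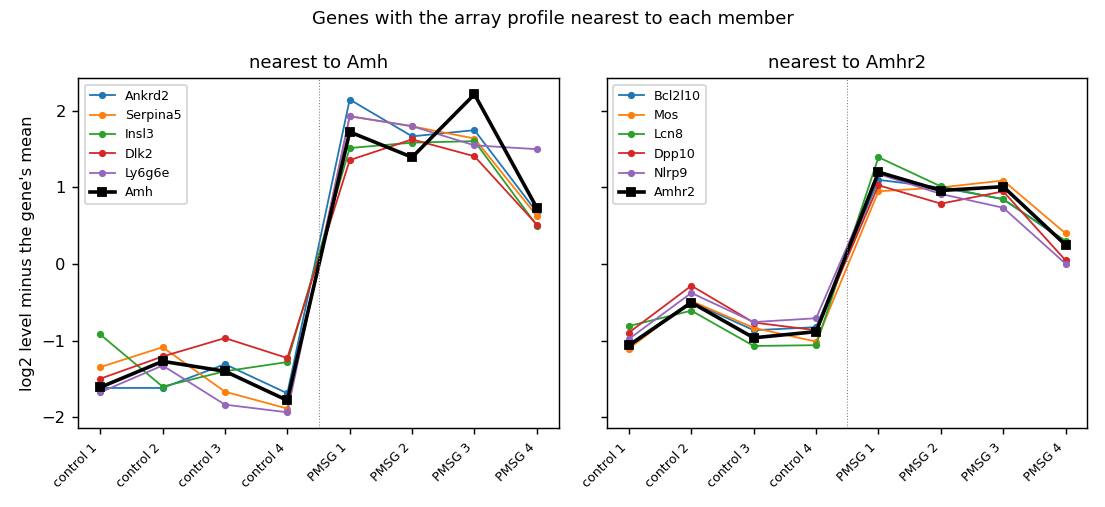
Log2 level minus the gene's own mean over 8 arrays, by array, for Amh (left, black) and Amhr2 (right, black) with the 5 genes nearest to each in colour. Profiles nearest to Amh lie 0.28 to 0.43 from it and those nearest to Amhr2 lie 0.08 to 0.17 from it, and PMSG array 4 is the lowest of its label for both members.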

How the data were processed

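Agilent Feature Extraction 11.5.1.1 gave each spot's intensity, per the file headers, after detrending in space and by a multiplicative factor. Probe positions are in build rn4. The labels' protocols give 500 ng of total RNA per sample, oligo-dT primed and Cy3-labelled. The authors also deposited log2 values, which tracked the scaled scanner values with probes not centred, and served as an alternative. Scaling subtracted the 75th percentile of the array. Spots that were controls or flagged as outliers were dropped, and log2 values were averaged over a probe's other spots. For 17 probes some array had no usable spot, leaving 30350. A probe counted as well above background where at least 0.5 of its spots did. Groups follow the sample titles.

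Tests used limma 3.58.1 in R 4.3.3 over all 25303 tested probes, with Benjamini-Hochberg adjustment at 0.05, checked on simulated data. Only 4 arrays per group limit precision. The brightest probe of each gene was used. Genes named are the members, all listed genes, chromosomal neighbours to the second, and the 5 nearest profiles per member. Members and lists were chosen with earlier results of these data known. Unassigned columns of values numbered 0. Promoters are from RefSeq (GRCr8), with both members matched. Alternatives covered background correction, normalization, filters, deposited values, blocks, array weights and arrays left out.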

Additional observations from a re-analysis of the deposited data

Results flagged for a closer look

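Single arrays apart from their label were looked for in the members, listed pathway genes, neighbours, nearest profiles and the within-array difference. Genes used only as cell type markers were not examined in this way. Of 138 groups of 4 arrays examined, 4 had 1 array far from the other 3, where chance alone gives about 1 in 20 groups, here 6.9. For Amh minus Amhr2, PMSG array 3 stood at 2.55 and the others between 1.77 and 1.86, a gap of 0.890 of the range. For Insl3, PMSG array 4 stood at 2.49 and the others between 3.50 and 3.59 (0.921). For Bmp6, PMSG array 2 stood at -4.33 and the others between -4.98 and -4.88 (0.847). For Ctnnb1, control array 4 stood at -0.31 and the others between -0.63 and -0.61 (0.946). Neither Amh nor Amhr2 itself had an array apart.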

How the results depend on the processing

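The log2 difference of Amh kept its direction and call under 18 alternatives. It ran from 2.79 to 3.29 with 1 array left out and from 2.86 to 3.14 otherwise. That of Amhr2 kept both as well, from 1.59 to 1.91 and from 1.54 to 1.82. Relative to the granulosa marker mean, a comparison chosen after seeing the data, the differences were 2.95 for Amh and 1.63 for Amhr2. The marker mean varied too little to make the groups overlap, so this comparison is not counted among the alternatives. The highest limma adjusted p was 0.00317 for Amh and 0.00677 for Amhr2, both with the replicate block. The shift of Amh minus Amhr2 ran from 1.14 to 1.40 with 1 array left out. The count of differing probes, 8658, ran from 6552 to 11382 (without PMSG array 4), and was 7346 with the replicate block. The replicate numbers were not taken as pairs, since deviations of same-numbered arrays correlated at 0.0444, 0.0361, 0.183 and -0.0192, and 3 of 8 arrays correlated best with their own number. Slide and scan were single, so no such block was fitted, and slide row gave 8124. Over 56 other named genes none reversed a call; 41 kept their side of the threshold under every alternative run on them. The replicate block ended the calls of Sp1, Inhbb, Inhba, Tgfb2 and Tgfb3 and added that of Zfpm2.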
